A study of Mus musculus with 6 samples.

Results

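Germ cells make and store many mRNAs well before they translate them, and the 10 genes described here encode RNA-binding proteins and poly(A) factors that keep such mRNAs silent, lengthen their tails or release them to ribosomes. They were Ybx1, Ybx2 and Ybx3, Dazl and Boll, Papolb, Pabpc1 and Paip2, and Elavl1 and Celf1. The genes were chosen by symbol for this known role, and all 10 were found among the 34144 gene rows, with 70 of the 126126 quantified transcripts. The RNA came from whole testes, freed of their capsule, of 3 wild-type and 3 Nsun7-/- mice, all C57Bl/6J and 3 months old, with 1 mouse to a library. Nsun7 encodes a putative RNA methyltransferase of the NOL1/NOP2/SUN family. The labels do not describe the allele. Only spread between these 6 mice stands behind the p-values.

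In spermatogenesis transcription stops while the spermatid nucleus is being compacted, so proteins of late spermatids are made from mRNAs stored earlier as silent particles with protein. Y-box proteins coat these mRNAs, DAZ family proteins bind the 3′ untranslated region and recruit poly(A)-binding protein, and poly(A)-binding protein joins the tail to the cap complex. A longer tail generally favours translation, and Paip2 lowers it by displacing poly(A)-binding protein.

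Each library held between 23480448 and 28558865 estimated gene counts. Nsun7 itself stood at 36.6, 35.7 and 37.2 CPM (counts scaled to library size with the trimmed mean of M-values, TMM) in wild-type mice 1 to 3, and at 18.03, 17.8 and 25.2 in knockout mice 1 to 3. It fell by 0.84 on the log2 scale (SE 0.15, edgeR adjusted p = 0.016), with every knockout library below every wild-type library, and reads remained in all 3 knockouts. The call was lost without any 1 of the wild-type mice or knockout mouse 2 (adjusted p 0.0556 to 0.093), where the value was between -0.87 and -0.76. Wild-type mouse 1 and knockout mouse 3 stood at the ends of the main axis of variation over all tested genes, which held 35.5% of the variance. On that axis wild-type mice 1 to 3 were at -38.3, -21.3 and -6.4 and knockout mice 1 to 3 at 1, 15.9 and 49.2. The genotypes thus did not overlap on it. The share of TPM, the deposited abundance per transcript length, taken by the single small RNA Rmrp was highest in wild-type mouse 1, at 33.3%, and lowest in knockout mouse 3, at 11.4%. A change in the TPM of any other gene therefore carries part of that difference, and genotypes are compared on scaled counts below.

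Sequence shows how close some members are to each other and to relatives outside the group, which bears on how reads are shared. The Y-box genes meet in the cold-shock domain, the shared RNA- and DNA-binding fold. A stretch of 60 coding bases was picked by search for the most matches of Ybx1 and Ybx3 to Ybx2. Its likeness is therefore that of the closest stretch, not of the whole coding sequences. It is printed here from the GENCODE M21 transcripts, with capitals at bases that the 3 genes do not all share.
Ybx2: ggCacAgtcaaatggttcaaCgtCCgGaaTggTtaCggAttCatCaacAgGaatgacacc
Ybx1: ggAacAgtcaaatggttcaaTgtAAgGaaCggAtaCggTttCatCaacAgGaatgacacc
Ybx3: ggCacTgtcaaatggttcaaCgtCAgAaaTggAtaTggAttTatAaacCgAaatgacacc
Of the 60 positions 46 were the same in all 3 genes. Ybx2 differed from Ybx1 at 7 positions and from Ybx3 at 9, and Ybx1 differed from Ybx3 at 12. Over whole transcripts, none of the 31-base words of Ybx2 or Ybx3 occurred in a transcript of another gene (0.0% of each). Ybx1 shared 25.9% of its words with other genes, chiefly the pseudogenes Gm11560 and Ybx1-ps2, which are not rows of the deposited gene table. The value of Ybx1 is uncertain to the extent that reads from such copies were assigned to Ybx1 or split with it.

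Papolb encodes the testis-specific cytoplasmic poly(A) polymerase and is an intronless relative of Papola, the nuclear enzyme of all tissues. The window printed here was picked in the same way as the closest stretch, and it was identical in both genes over all 60 bases.
Papolb and Papola: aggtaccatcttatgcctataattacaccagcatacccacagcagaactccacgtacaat
Even so, Papolb shared 1.8% of its 31-base words with Papola over its whole transcript of 4239 bases. Pabpc1 shared 16.1% of its words with other genes, mainly the copies Gm16580 and Gm8276, which are not rows of the deposited gene table either. Paip2 shared 3.6%, Elavl1 2.5%, Celf1 0.4%, and Dazl and Boll 0.0%. In GENCODE M21, Papolb lies within Radil on the same strand and Ybx3 holds a small nucleolar RNA gene, while Boll, Paip2 and Elavl1 overlap Gm8292, Slc23a1 and Ccl25 on the other strand. Of these neighbours, Ccl25 shared 1.7% of the 31-base words of Elavl1 on either strand, and the other 4 shared 0.0% of those of their member. Only annotated transcripts were compared, so these shares do not cover reads from unspliced RNA of an overlapping gene.

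The 10 genes spanned a wide range of levels per transcript length. Ybx2, the germ-cell Y-box protein also known as MSY2, was highest with a mean of 1459 TPM over the 6 libraries and a range of 1189.5 to 1638. Pabpc1, the main cytoplasmic poly(A)-binding protein, followed at 1165 TPM. Ybx3 (630.6 TPM) and the widely expressed Ybx1 (385 TPM) came next, so Y-box transcripts took 3 of the 4 highest places. Boll, the DAZ relative of late meiosis and spermatids, had 134 TPM. Dazl, which acts from the embryonic germ cell onward, had 106 TPM. Elavl1, the AU-rich element binding protein HuR, had 97.5 TPM. Celf1, which binds GU-rich elements, had 40.6 TPM, Paip2 37.5 and Papolb 24.3. These values sum coding and noncoding transcripts. Coding transcripts held 29.75% to 37.62% of Ybx1 TPM and 24.11% to 33.35% of Dazl TPM, but at least 92.39% of Ybx2 TPM. They held 51.56% to 69.12% of Pabpc1 TPM, 53.8% to 60.58% of Elavl1 TPM and 50.5% to 63.02% of Celf1 TPM. The order and the TPM ratios below therefore describe all RNA of a gene, not its coding RNA.

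Each gene stood above the next in all 6 libraries, with 2 exceptions. Dazl was above Elavl1 in 5 of 6 libraries, and Celf1 above Paip2 in 4 of 6, so those neighbours could not be ordered beyond their spread. The step from Ybx1 down to Boll, between 2.42-fold and 3.18-fold, was the widest between neighbours. Ybx2 exceeded Pabpc1 by only 1.06-fold to 1.4-fold.

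**Figure D1:**
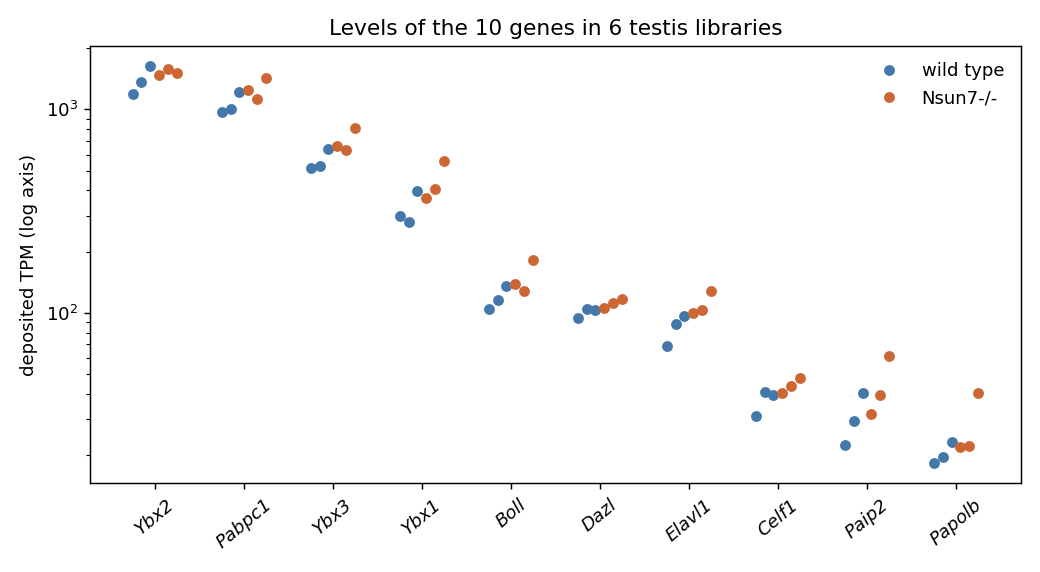
Deposited TPM of the 10 genes on a log axis, 1 point per library, wild type in blue and Nsun7-/- in orange, genes ordered by their mean. Ybx2 lay highest with a mean of 1459 TPM and Papolb lowest with 24.3 TPM, and knockout mouse 3 held the highest TPM of every gene other than Ybx2.

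None of the 10 genes passed the test between genotypes. With edgeR's quasi-likelihood test 0 of 10 had an adjusted p under 0.05, against 0.567% of the 21002 genes tested, and 0 had an unadjusted p under 0.05, against 8.39%. DESeq2 also called 0. The CPM of the genotypes overlapped for all 10 members, while they did not overlap for 14.3% of tested genes. Of the 10 values, 7 lay above 0 and 3 below, with a median of 0.09 on the log2 scale beside 0.015 over all tested genes. The 95% intervals reached no further than 1.39-fold higher (Paip2) and 0.72-fold (Ybx2) in the knockout. On log2(TPM + 1), where the median of all tested genes was 0.27, Ybx2 was at 0.14 and Dazl at 0.15, and they were at -0.17 and -0.15 once each library was centred. In whole testis, fewer cells of a type and less RNA per cell cannot be told apart.

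**Figure D2:**
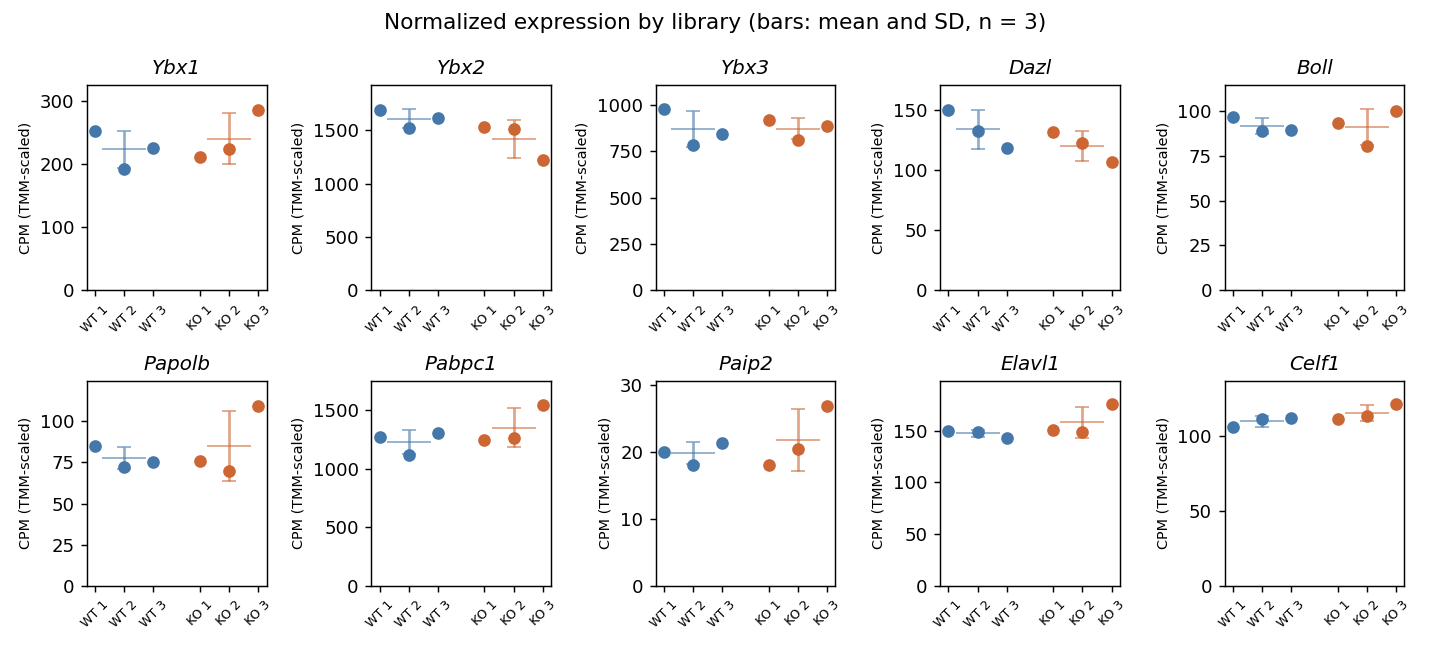
TMM-scaled CPM of each gene in every library, with horizontal bars for the genotype mean and vertical bars for the SD (n = 3), each axis starting at 0. The genotypes overlapped in every panel, and knockout mouse 3 held the highest value in 7 of 10 panels.

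None of the 3 Y-box genes passed the test. Ybx2 protein is among the most abundant proteins of meiotic and postmeiotic germ cells and both stabilizes and silences the mRNAs it coats. Its CPM was 1695, 1525 and 1617 in wild-type mice 1 to 3 and 1535, 1512 and 1219 in knockout mice 1 to 3. The means were 1612 ± 85.2 and 1422 ± 176 (SD, n = 3), a log2 difference of -0.18 (SE 0.14, 95% interval -0.47 to 0.11, adjusted p = 0.702). Knockout mouse 3 was lowest, and the other 5 libraries lay close together with the genotypes mixed.

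Ybx1, the family member of most cell types, had 252, 193 and 225 CPM in wild type and 211, 224 and 286 in the knockout. The difference was 0.11 (SE 0.15, interval -0.20 to 0.42, adjusted p = 0.825), with knockout mouse 3 highest and wild-type mouse 2 lowest. Ybx3, called MSY4 in mouse, binds the same class of stored mRNAs as Ybx2. Its CPM was 979.6, 786 and 846 in wild type and 921, 809.7 and 887 in the knockout, with a difference of 0.003 (SE 0.13, interval -0.28 to 0.29, adjusted p = 0.995). Here the highest library was wild-type mouse 1, and the genotypes were fully mixed.

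Within a library, Ybx2 was between 2.70 and 4.85 times the TPM of Ybx1, with coding and noncoding transcripts summed. This ratio was 3.99, 4.85 and 4.13 in wild type and 4.04, 3.88 and 2.70 in the knockout, a log2 difference of -0.30 (exact permutation p = 0.2, two-sided, where 0.1 is the smallest that 3 against 3 allows; 0.533 adjusted over 8 ratios). Knockout mouse 3 had the lowest ratio, and knockout mouse 1 lay among the wild-type values. Ybx2 over Ybx3 was 2.32, 2.60 and 2.56 in wild type and 2.24, 2.498 and 1.86 in the knockout (difference -0.19, exact p = 0.2), again with knockout mouse 3 lowest. Without that mouse the differences were -0.12 for Ybx2 over Ybx1 and -0.07 for Ybx2 over Ybx3.

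Y-box proteins are named for the promoter element that holds ATTGG, which reads CCAAT on the opposite strand, and RefSeq promoter windows of Ybx1 and Ybx2 hold it. A second Ybx2 window and the Ybx3 window held 0 copies. The windows with copies are printed from RefSeq on GRCm38.p6, from 250 bases before to 50 after the annotated start, with each copy in capitals.
Ybx2 (chr11:69935649-69935948, plus strand): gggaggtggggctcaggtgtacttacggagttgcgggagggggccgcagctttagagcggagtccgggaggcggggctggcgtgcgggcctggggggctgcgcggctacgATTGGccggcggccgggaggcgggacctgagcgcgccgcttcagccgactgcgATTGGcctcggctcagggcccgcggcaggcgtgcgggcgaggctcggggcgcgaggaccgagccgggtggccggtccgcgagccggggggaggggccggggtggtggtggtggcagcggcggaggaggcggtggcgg
Ybx1 (chr4:119294464-119294763, minus strand): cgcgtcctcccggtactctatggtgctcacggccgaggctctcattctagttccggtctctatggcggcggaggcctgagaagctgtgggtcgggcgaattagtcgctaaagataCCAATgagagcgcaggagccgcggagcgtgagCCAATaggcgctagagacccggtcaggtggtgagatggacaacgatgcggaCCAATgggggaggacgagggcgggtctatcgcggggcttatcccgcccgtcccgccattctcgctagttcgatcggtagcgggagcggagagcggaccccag
This Ybx2 window held 2 copies and the Ybx1 window 3. On either strand, ATTGG occurred in 37.4% of all 32851 promoter windows. Of the 8 members with a RefSeq promoter, 6 had it in at least 1 window. Ybx2 and Boll also had a window with 0 copies, so this count by member is not on the scale of the 37.4% of windows. None of the 8 held TGACGTCA, the palindromic cAMP response element, which 1.8% of all windows held. A match describes the letters in the window only.

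The DAZ family members Dazl and Boll both carry an RNA recognition motif and bind 3′ untranslated regions. Dazl had 151, 133 and 119 CPM in wild type and 132, 122 and 107 in the knockout. The difference was -0.155 (SE 0.13, interval -0.43 to 0.12, adjusted p = 0.724), with wild-type mouse 1 highest, knockout mouse 3 lowest and the middle libraries mixed. Boll had 96.9, 88.9 and 89.4 CPM in wild type and 93.4, 80.5 and 100.2 in the knockout, with means of 91.7 ± 4.50 and 91.4 ± 9.99. Its difference was -0.005 (SE 0.12, interval -0.26 to 0.25, adjusted p = 0.991), and knockout mice held both its highest and its lowest value. The TPM of Dazl over that of Boll was 0.90, 0.90 and 0.76 in wild type and 0.77, 0.87 and 0.65 in the knockout (log2 difference -0.16, exact p = 0.3).

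The 3 genes of the poly(A) tail had values above 0 without passing the test, and Pabpc1 was at -0.05 on centred log2(TPM + 1). Papolb extends tails in the cytoplasm of spermatids. It had 85.1, 72.4 and 75.5 CPM in wild type and 75.6, 69.9 and 109 in the knockout, a difference of 0.13 (SE 0.16, interval -0.21 to 0.46, adjusted p = 0.806). Knockout mouse 3 stood far above the rest, while knockout mouse 2 was the lowest of all 6. Papolb over Papola in TPM was between 0.63 and 0.76 in every library, and the genotypes differed by 0.04 (exact p = 0.8), or by -0.09 on gene counts (exact p = 0.4).

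Pabpc1 had 1269, 1111 and 1299 CPM in wild type and 1242, 1259 and 1539 in the knockout. The difference was 0.14 (SE 0.14, interval -0.16 to 0.43, adjusted p = 0.766), with knockout mouse 3 highest and the others overlapping. Paip2, its inhibitor, whose loss in mice impairs late spermiogenesis, had 20.0, 18.03 and 21.3 CPM in wild type and 17.99, 20.4 and 26.8 in the knockout. Its difference was 0.14 (SE 0.16, interval -0.20 to 0.48, adjusted p = 0.788), with knockout mouse 3 highest and knockout mouse 1 lowest.

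The RNA of the inhibitor was below that of its target in every testis, and protein was not measured. Paip2 over Pabpc1 in TPM was 0.023, 0.029 and 0.033 in wild type and 0.025, 0.035 and 0.043 in the knockout (log2 difference 0.25, exact p = 0.4), so the genotypes overlapped. On gene counts, without the correction for length, that difference was -0.01 (exact p = 0.9). Paip2 exceeded its paralog Paip2b between 1.37-fold and 1.97-fold (difference 0.06, exact p = 0.8; on gene counts -0.03, exact p = 0.8). Pabpc1 exceeded Pabpc4, an inducible relative, between 77.4-fold and 139-fold (difference -0.13, exact p = 0.7; on gene counts 0.04, exact p = 0.8).

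Elavl1 and Celf1 varied least between mice. Elavl1 stabilizes many AU-rich mRNAs, and its targeted loss in mouse germ cells impairs spermatogenesis. It had 149.7, 149 and 143 CPM in wild type and 151, 148 and 175 in the knockout, a difference of 0.10 (SE 0.12, interval -0.14 to 0.35, adjusted p = 0.788). Celf1, whose loss in mice also impairs spermatogenesis, had 106, 112 and 112 CPM in wild type and 112, 114 and 122 in the knockout, a difference of 0.07 (SE 0.11, interval -0.16 to 0.31, adjusted p = 0.844). In both genes knockout mouse 3 was highest, and the other 5 libraries lay within a narrow band. The ratio of Elavl1 to Celf1 in TPM ranged from 2.15 to 2.69, with a log2 difference of 0.14 (exact p = 0.2) that was 0.03 on gene counts (exact p = 0.7).

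**Figure D3:**
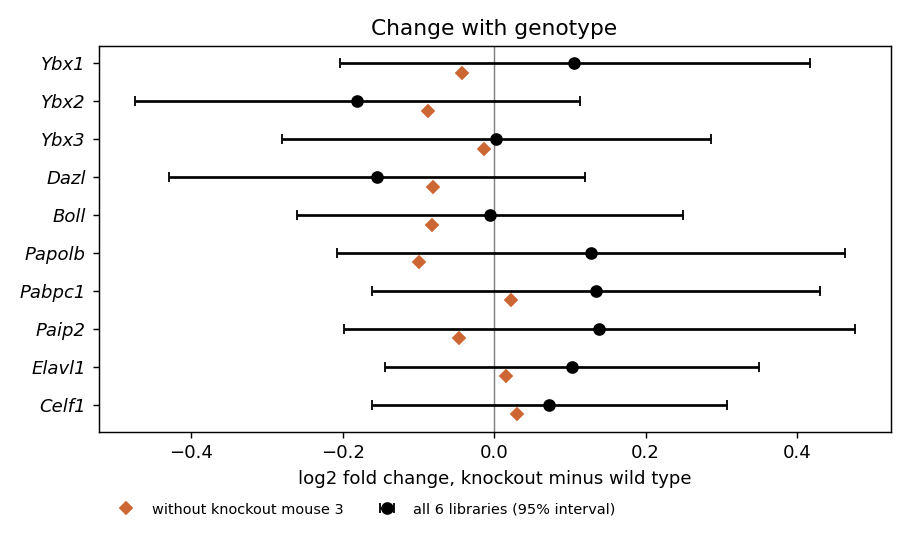
Log2 fold change of each gene, knockout minus wild type, from all 6 libraries (black points, bars for the 95% interval) and with knockout mouse 3 left out (orange diamonds). Every interval crosses 0, and without that library the 10 values lay between -0.10 and 0.03.

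Several of the differences in means, but not all, shrank or changed sign when knockout mouse 3 was left out. Knockout mouse 3 had the highest CPM for 7 of the 10 members (Ybx1, Boll, Papolb, Pabpc1, Paip2, Elavl1 and Celf1) and the lowest for 2 (Ybx2 and Dazl). Over all tested genes that library was highest for 31.2% and lowest for 28.7%. It lay above the mean of the other 5 libraries by 0.53 (log2) for Papolb, 0.46 for Paip2, 0.38 for Ybx1 and 0.32 for Pabpc1. It lay below that mean by a log2 difference of -0.37 for Ybx2 and -0.29 for Dazl. Without knockout mouse 3, Papolb was at -0.10, Paip2 at -0.05 and Ybx1 at -0.04, on the other side of 0 from their values over all 6 libraries. Ybx2 was then at -0.09, and Boll moved away from 0, from -0.005 to -0.08. Dazl was at -0.08 without knockout mouse 3 and at -0.07 without wild-type mouse 1. Ybx3, at 0.003 over all 6 libraries, was at -0.01 without knockout mouse 3. It was also below 0 without wild-type mouse 2 (-0.07), wild-type mouse 3 (-0.02) or knockout mouse 1 (-0.05).

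**Figure D4:**
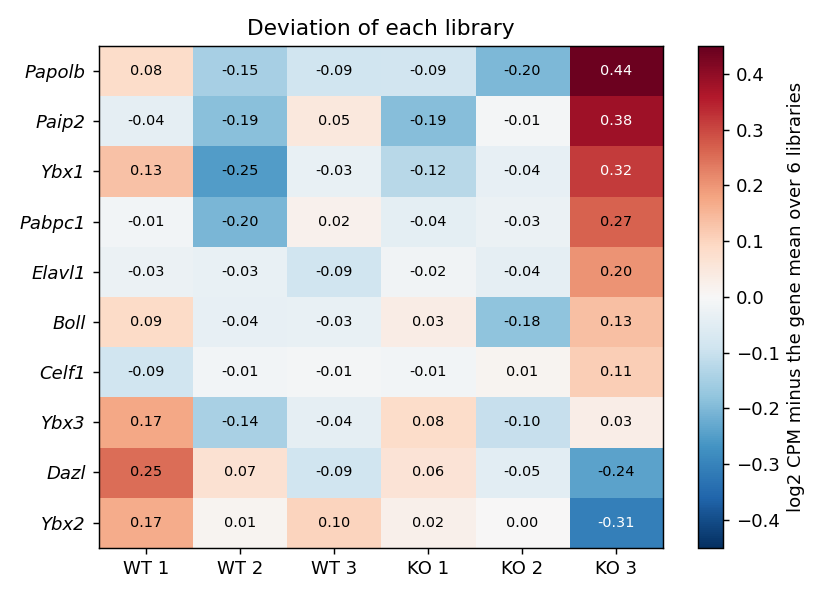
Log2 CPM of each gene in each library minus the mean of that gene over the 6 libraries, in red above and in blue below that mean. The column of knockout mouse 3 runs from 0.44 (Papolb) to -0.31 (Ybx2), the widest range of the 6 columns.

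Markers of germ cell stages differed between the same libraries. The summed CPM of 6 pachytene spermatocyte markers was 9269, 9223 and 7978 in wild type and 8327, 7581 and 6199 in the knockout. For 7 elongating spermatid markers it was 7285, 6522 and 8454 in wild type and 5775, 7744 and 5692 in the knockout. Round spermatid markers ranged from 407 to 481 and spermatogonial markers from 203 to 245 over the 6 libraries, with overlapping genotypes. Among somatic lists, Leydig cell markers were at 2821, 2233 and 1672 in wild type and 4786, 2845 and 2117 in the knockout, with 1 of 6 markers called. All 6 had log2 values above 0, with a median of 0.758. Sertoli cell markers ran from 2826, in knockout mouse 3, to 4310, with overlapping genotypes. Peritubular cell markers were at 520.2, 524 and 477 in wild type and 468, 440.1 and 358 in the knockout, without overlap, and 0 of 5 were called. Macrophage markers ran from 95.9 to 216. Log2 values above 0 numbered 5 of 5 for macrophages, 0 of 6 for pachytene spermatocytes and 0 of 5 for peritubular cells. They numbered 3 of 6 for spermatogonia, 4 of 6 for round spermatids, 2 of 7 for elongating spermatids and 1 of 6 for Sertoli cells. Of 4 erythrocyte markers 3 were not tested, and Hba-a1 was at 0. Knockout mouse 3 was lowest for the spermatogonial, pachytene, elongating spermatid, Sertoli and peritubular lists and for the tested erythrocyte marker. It was not lowest for the round spermatid, Leydig or macrophage lists. The part of cell makeup in the values of the 10 genes was not tested.

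Transcripts of the members were compared next. Of the 70 transcripts 53 were tested, and 0 had an adjusted p under 0.05 with edgeR, against 0.0272% of 58773 transcripts. The smallest adjusted p of a member transcript was 0.932, 1 had an unadjusted p under 0.05, against 4.76% of all, and DESeq2 called 0. Papolb is quantified as 1 transcript, so its gene and transcript values coincide. Ybx3 was nearly a single-transcript gene as well, since Ybx3-201 (1853 bases) held between 90.5% and 91.9% of its TPM.

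Ybx2 was shared between a pair of coding transcripts. Ybx2-201 (1673 bases) held 43.5% to 48.6% of the TPM of the gene and Ybx2-205 (1235 bases) held 38.3% to 48.2%, and coding transcripts took at least 97.25% of its counts. Boll was carried mainly by Boll-202 (1106 bases), at 62.0% to 67.4% of TPM in all libraries. In Ybx1 the short noncoding Ybx1-203 (561 bases) held 40.7% to 55.2% of TPM and the coding Ybx1-201 (1628 bases) 28.9% to 35.9%.

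Most of the Dazl signal was assigned to a transcript annotated as a retained intron. Dazl-203 (1342 bases) held 67.0%, 67.8% and 70.7% of its TPM in wild type and 66.7%, 70.0% and 71.6% in the knockout, with the genotypes overlapping. Coding transcripts took 40.8%, 42.8% and 42.7% of Dazl counts in wild type and 46.9%, 42.1% and 39.2% in the knockout. For Celf1 the coding share of counts was at least 94.75%, but its coding share of TPM was 50.5% to 63.02%. The short noncoding Celf1-213 (478 bases) held 30.11% to 44.62% of Celf1 TPM. The libraries were made from ribosome-depleted total RNA, in which unspliced and partly spliced RNA is read too.

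Among 30 transcripts with at least 10% of their gene in some library, the TPM share did not overlap between genotypes for 3, against 10.3% of 47271 transcripts chosen the same way over all tested genes. Each of the 3 had an exact permutation p of 0.1 and an adjusted p of 1. Dazl-202 (600 bases) held 4.64%, 9.88% and 8.61% in wild type and 10.3%, 10.4% and 10.7% in the knockout, a mean difference of 2.77 percentage points that was 1.23 without wild-type mouse 1. As a share of estimated counts its genotypes overlapped. Paip2-201 (1475 bases) held 23.53%, 14.3% and 12.2% in wild type and 10.4%, 10.9% and 9.88% in the knockout, with a mean difference of -6.27 percentage points, or -2.84 without wild-type mouse 1. For these transcripts wild-type mouse 1 lay farthest from the knockouts.

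The third was Celf1-206 (4678 bases), with 16.6%, 14.2% and 11.9% in wild type and 4.79%, 10.9% and 4.80% in the knockout. It was also the transcript with an unadjusted p under 0.05, at a log2 difference of -1.14 (SE 0.39, edgeR unadjusted p = 0.0246, adjusted p = 0.932). None of its 31-base words is unique among the transcripts of the members (0.0%). Summed with Celf1-201 (4830 bases), which likewise has no such word, the estimated counts were 889, 1278 and 1018 in wild type and 1101, 1040 and 1002 in the knockout, and the genotypes overlapped. Taken alone, Celf1-201 was at a log2 difference of 0.46 (edgeR adjusted p = 0.932), opposite in direction to Celf1-206. Celf1-202, Celf1-203 and Celf1-213 also had no such word. The split of reads between these Celf1 transcripts is uncertain, and its part in the difference was not tested.

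The makeup of Pabpc1 differed widely between libraries. Its long coding transcript Pabpc1-201 (2817 bases) held 26.4%, 31.1% and 36.7% of TPM in wild type and 28.9%, 41.6% and 50.8% in the knockout. The short Pabpc1-204, Pabpc1-207 and Pabpc1-208 together held 38.2%, 32.2% and 26.9% of its counts in wild type and 34.5%, 23.1% and 17.1% in the knockout. Knockout mouse 1 lay among the wild-type libraries in both measures. The estimated mean fragment length of the libraries was 154, 168 and 175 bases in wild type and 176, 178 and 176 bases in the knockout, and its part in these shares was not tested. Pabpc1-204 shared 51.2% of its 31-base words with other genes, Pabpc1-207 49.8% and Pabpc1-201 33.4%.

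**Figure D5:**
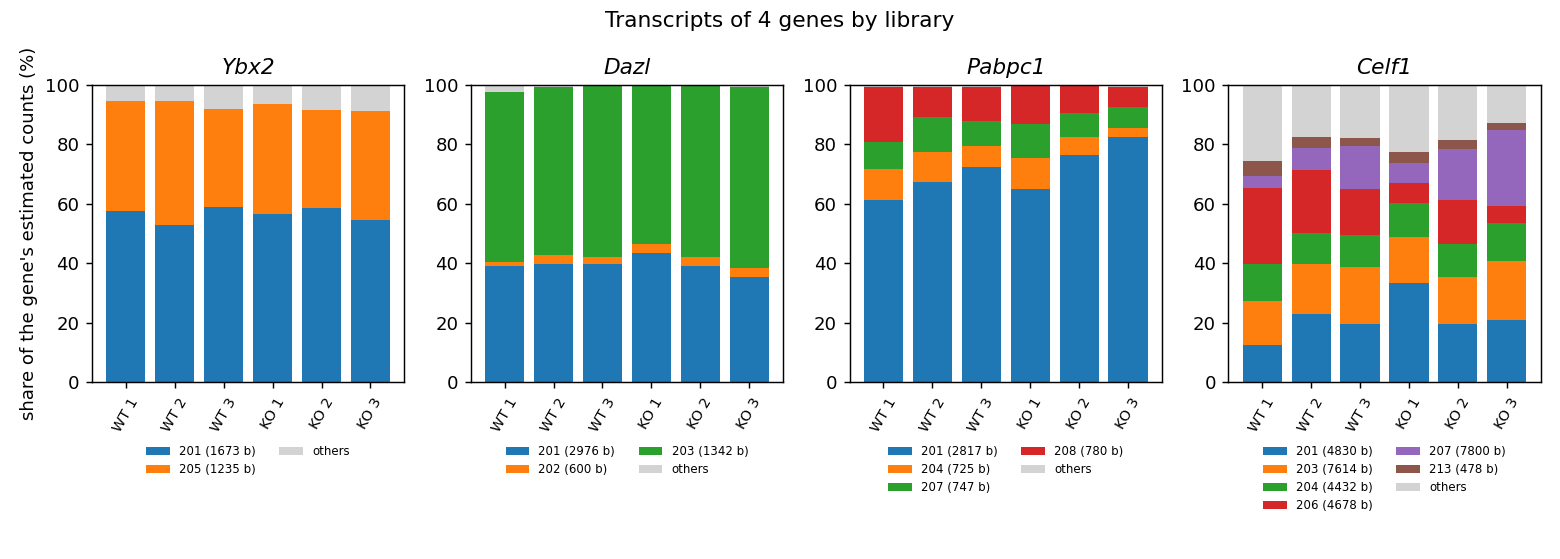
Share of the estimated counts of Ybx2, Dazl, Pabpc1 and Celf1 held by each larger transcript, 1 bar per library, with lengths in bases in the legends and remaining transcripts in grey. Dazl-203 held more than any other Dazl transcript in every library, and Pabpc1-201 ran from 61.2% in wild-type mouse 1 to 82.3% in knockout mouse 3.

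Partners of the 10 genes in the same pathways also had no call. Of 19 further genes of the poly(A)-binding and cap complex, 18 were tested and 0 called, with 13 values above 0, 5 below and a median of 0.05. The gene of smallest p was Eif4a1, the helicase of the cap complex, with 1713, 617 and 475 CPM in wild type and 472, 384 and 338 in the knockout (log2 difference -1.23, SE 0.57, adjusted p = 0.641). Its knockouts were all lower, and wild-type mouse 1 stood alone above the rest. Without that mouse Eif4a1 was at -0.46 (adjusted p = 0.92), and on log2(TPM + 1) at -0.23 (adjusted p = 0.456). Eif4ebp1, which holds the cap-binding protein inactive, followed at -0.30 (adjusted p = 0.641).

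Of 22 poly(A) polymerases and cytoplasmic polyadenylation factors 0 were called, with 10 values above 0, 12 below and a median of -0.008. Sympk, the scaffold of the polyadenylation complex, had 564, 545 and 547 CPM in wild type and 484, 518 and 381 in the knockout, without overlap (difference -0.26, adjusted p = 0.631). Papola was at 0.20 (adjusted p = 0.674), with overlapping genotypes. Among 27 other germ cell RNA-binding regulators 0 were called, with 18 values above 0 and 9 below. Tarbp2, which in mouse testis is needed for the timely translation of stored protamine mRNA, was at -0.23 (adjusted p = 0.67). Msi2 was at 0.17 (adjusted p = 0.67), with all 3 knockouts above all 3 wild types. The 8 Elavl and Celf paralogs had 2 values above 0 and 6 below, a median of -0.14 and 0 calls. Celf4 was lowest of the named paralogs at -0.35 (adjusted p = 0.65), and Celf5 was at -0.19 (adjusted p = 0.67).

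The stored mRNAs that several of these proteins act on were measured in the same libraries. Of 10 spermatid mRNAs known for delayed translation 0 were called, 4 values lay above 0 and 6 below, and the median was -0.21. Unadjusted p was under 0.05 for 3 of the 10, against 8.39% of all tested genes. These were Prm3, Tnp2 and Tnp1, of which Tnp1 is named after its values were seen. Prm3 was at -0.53 (SE 0.19, adjusted p = 0.479) and Tnp2, a transition protein of chromatin, at -0.39 (SE 0.16, adjusted p = 0.542). The lowest value of the list, -0.79, belonged to Tnp1. Tnp2 had 1294, 1078 and 1368 CPM in wild type and 986, 1114 and 758 in the knockout, so its genotypes overlapped. These mRNAs overlap the elongating spermatid markers given above.

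The best-known Y-box recognition sequence lies in the 3′ untranslated region of Prm1, the mRNA of protamine 1. The site, TCCATCA, is printed in capitals within 30 bases of the GENCODE M21 transcript.
Prm1: agaatagcaagTCCATCAaaactcctgcgt
It starts 141 bases from the 3′ end. TCCATCA occurred on the mRNA strand in 0.83% of the last 158 bases of 18852 genes with a 3′ untranslated region of that length. Of the 10 delayed mRNAs, only Prm1 itself held these exact letters in the whole 3′ untranslated region. No variant of the site was searched, so the other delayed mRNAs are not shown to lack a recognition sequence. Ybx3 and Paip2 each held 1 copy in their whole 3′ untranslated regions, and the other 8 members held none. These copies start 372 and 516 bases from the 3′ end, outside the last 158 bases, so the 0.83% is no background for them. The longest annotated 3′ untranslated region of each gene was used. For Paip2 it was that of Paip2-205, which had 0.0 to 13.0 estimated counts per library. The presence of these letters says nothing of binding.

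The tested gene whose profile over the 6 libraries lay nearest to each member was found from log2 CPM centred on the mean of each gene. It was Pcbp4 for Ybx2 (root-mean-square difference 0.021), Qser1 for Ybx1 (0.032) and Bag4 for Ybx3 (0.021). For Dazl it was Mlxipl (0.015), for Boll Nipbl (0.021) and for Papolb Map4k5 (0.028). Rheb was nearest to Pabpc1 (0.018), Pou2f1 to Paip2 (0.024), Srsf1 to Elavl1 (0.022) and Mrpl3 to Celf1 (0.019). The median difference over all genes was between 0.21 and 0.30 for each member. Between members, Elavl1 and Celf1 were nearest (0.061), then Ybx1 and Pabpc1 (0.076) and Pabpc1 and Paip2 (0.079). These likenesses describe 6 libraries, among which knockout mouse 3 stood apart, and carry no test.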

How the data were processed

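Total RNA was depleted of ribosomal and globin RNA, per the labels' protocols. The submitters' processing notes name kallisto 0.50.1 and mm39. Annotation release, strandedness and how transcripts were summed to genes: not given in the sources used here. For each sample the authors deposited estimated counts and TPM per transcript, per the file headers, and series tables of estimated counts (whole numbers) and TPM per gene symbol. Transcript estimates were rounded before testing, and the members' transcript sums lay within 0.495 counts of their gene rows. No column belonged to another sample (0 found).

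The tests ran over all gene rows and all transcripts (edgeR 4.0.16, R 4.3.3): TMM, filterByExpr by genotype (minimum count 10, minimum total 15), robust quasi-likelihood test, Benjamini-Hochberg adjustment over all tested features, threshold 0.05. Of 30388 genes with a count 21002 were tested, including all 10 members. SEs are the fold change over the square root of F. Positive values mean higher in the knockout. Scripts were tested on simulated data. Log2 CPM for the library profiles used a prior count of 2. Within-library TPM ratios and TPM shares were compared by exact permutation tests. The biological coefficient of variation was 14.9%. Alternatives used DESeq2 1.42.0, limma 3.58.1, other scalings and filters, a block for mouse number, leaving out each mouse, and log2(TPM + 1) or log2(TPM + 0.1) with genes at a mean TPM of at least 1.

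The members, gene lists and tests were chosen with earlier results of these data known. Named were the members, Nsun7, the 2 genes of smallest p and any call in each pathway list, paralogs used in ratios, and the nearest profile to each member. Sequence and overlaps come from GENCODE M21 and RefSeq on GRCm38.p6, a build other than that of the counts.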

Additional observations from a re-analysis of the deposited data

How the results depend on the processing

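Under every alternative 0 members were called, and the smallest adjusted p of a member was 0.385. The count of called genes, 119 with 49 higher, was 180 without the low-count filter, 203 with DESeq2, 59 (42 higher) on log2(TPM + 1), 48 (32 higher) on log2(TPM + 0.1) and 48 (13 higher) on library-centred log2(TPM + 1). It ran from 67, without wild-type mouse 1, to 166 when 1 mouse was left out, and was 78 without wild-type mouse 2 or 3. The 16 called transcripts became 416 with DESeq2 and between 0 and 6 when 1 mouse was left out. Same-numbered mice deviated together with correlations of 0.177, -0.005 and 0.199 for mice 1, 2 and 3, mouse 2 did not correlate best with its own number, and the labels do not say that a number pairs mice. With the mouse number as a replicate block the counts of called genes and transcripts were 331 and 0.

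The median of all tested genes was 0.27 on log2(TPM + 1) and 0.30 on log2(TPM + 0.1). On these scales the sign turned for Ybx2 (0.14 and 0.14), Dazl (0.152 and 0.153), Boll (0.315 and 0.317), Sympk (0.001 and 0.001) and Tarbp2 (0.078 and 0.078), and after centring Ybx2 was at -0.17 and Dazl at -0.15. Centring turned Boll to 0.013, Pabpc1 to -0.046 and Celf1 to -0.064. Ybx3, near 0, was at -0.006 with RLE scaling, -0.001 without the filter and -0.012 with DESeq2, and Boll was at 0.001 with a mean CPM filter of 1. With wild-type mouse 1 and knockout mouse 3 both left out, Dazl was at 0.016, Papolb at -0.024, Paip2 at -0.032 and Paip2b at -0.034. Leaving out 1 mouse gave ranges of -0.043 to 0.19 for Ybx1, -0.073 to 0.087 for Ybx3, -0.082 to 0.076 for Boll, -0.099 to 0.249 for Papolb, -0.235 to -0.071 for Dazl and -0.046 to 0.248 for Paip2. For single transcripts the ranges were -0.085 to 0.187 (Ybx1-201), -0.067 to 0.084 (Ybx3-201), -0.08 to 0.068 (Boll-202), -0.089 to 0.236 (Papolb-201) and -0.002 to 0.101 (Elavl1-204). Nsun7 stayed lower throughout, and its call was also lost on both TPM scales (-0.46 and -0.50, adjusted p 0.385) and on centred log2(TPM + 1) (-0.76, adjusted p 0.106). The cause of these differences was not tested, and 3 mice per genotype limit what can be resolved.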
